A study of Homo sapiens with 48 samples.

Results

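Graphite was compared with control medium in human THP-1 macrophages after 6 h and after 24 h of exposure. The members are the 18 samples so titled, out of 48 in the study: 3 samples labelled Graphite and 6 labelled as negative control at each time. THP-1 is an established human monocytic cell line, and all of these samples, controls included, had been turned into macrophages with the phorbol ester PMA. Graphite was given as 100 µg of material in fresh complete RPMI medium, and the control samples received RPMI medium alone. The labels give neither the source nor the particle size of the graphite, and a single cell line and a single dose limit the model. RNA was read on microarrays, with each sample labelled in 1 of 3 dyes; at each time graphite had 1 sample and the controls 2 samples in each dye. Whether replicates came from separate cultures is not stated. The p-values therefore measure only the spread between samples of the same label, which may be technical. In the fit of all 48 samples that spread is taken over all 14 groups, other materials included.

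Macrophages take up particles by phagocytosis, a process driven by actin, and pass them to lysosomes that the proton pump acidifies. Particles that resist digestion are known to trigger inflammatory signalling through NF-kB, chemokines and the inflammasome, oxidative stress answered by NRF2 targets, and metal stress answered by metallothioneins. The comparison asks which of these programmes, and which other genes, differed between graphite and control at each time.

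The macrophage label was set against marker genes. All 11 macrophage markers measured of 12 fixed had a mean log2 value above 11 over the 18 samples, from 12.60 for AIF1 to 15.83 for FCER1G, both myeloid genes. Of the promyelocyte genes, which THP-1 cells are known to carry, 5 of 7 lay above 8, and MPO lay at 6.68. The epithelial marker EPCAM stood at 6.74, the B cell marker MS4A1 at 6.75 and the fibroblast collagen COL1A1 at 6.82, near the bottom of a scale that ends at 16. Above 8 were only 2 of 5 epithelial, 3 of 7 measured lymphocyte and 2 of 6 fibroblast and endothelial markers. The highest of these were the endothelial and leukocyte gene PECAM1 at 12.73, above the macrophage marker AIF1, and the lymphocyte gene GNLY at 11.22. GNLY lay above 11 but below every macrophage marker. Averaged over each marker set, samples overlapped between graphite and control at 6 h; at 24 h the lymphocyte set ran from 8.54 to 8.98 in graphite and from 8.07 to 8.51 in controls, and its part in the results was not tested.

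Patterns over the table touch every result. Features were laid out in the order of the table as 532 rows of 85 and smoothed over neighbours, which left each sample with a pattern over that surface. For 17 of the 18 samples the pattern that matched best lay 20 or 40 columns away in the table, and 0 of the 16 that had a partner on the same array by label matched that partner best. Graphite 24 h replicate 1 and control 6 h replicate 5 had the strongest patterns (SD 0.539 and 0.517, against a median of 0.11 over all 48 samples). The patterns of this pair correlated with r = 0.99 across features, and their deviations from the gene means with r = 0.96 across genes. Position within each block of 20 columns also mattered. The first 4 columns of each block hold 12 samples: 9 of other materials, Graphite 6 h replicate 1, Graphite 24 h replicates 2 and 3, and 0 controls. These are called the leading columns below. Replicates of Graphite correlated across genes, as deviations from the gene means, with r between -0.41 and 0.11 at 6 h and between -0.32 and 0.37 at 24 h. For samples at the same place in each block of 20 columns the mean r was 0.63. For samples of the same labelled group it was -0.01. Whether the columns of values are in step with the sample labels was not tested. If they are not, the material, time and dye named for a value may be those of another sample. Every group below is therefore a group of samples so labelled, and values given as with graphite are values so labelled. No sample was moved to another group.

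In the fit of all 48 samples, 0 of 20399 genes passed an adjusted p of 0.05 (limma, Benjamini-Hochberg) at 6 h, at 24 h, with both times pooled, or in the difference between the times. The lowest adjusted p was 1.0 at 6 h, 0.185 at 24 h, 0.63 pooled and 0.534 for the time difference. At an unadjusted p under 0.05 there were 395 genes at 6 h (1.94%), 3202 at 24 h (15.7%), 1580 pooled (7.75%) and 1861 for the time difference (9.12%). When the 24 h groups were fitted alone, 814 genes (3.99%) passed, 567 higher (2.78%) and 247 lower (1.21%). Fitted alone in the same way, 0 genes passed at 6 h, where 449 (2.2%) had an unadjusted p under 0.05, and 0 passed pooled, where 2150 (10.5%) did. Graphite lay above all 6 controls at 24 h in 1322 genes (6.48%) and below all in 791 (3.88%). The median SE of a log2 difference was 0.262 at either time, and 0.234 at 6 h and 0.195 at 24 h with the groups of that time fitted alone. Across genes, the 6 h and 24 h differences correlated with r = -0.02 over 20399 genes, which are not independent replicates. Both differences also went with column position, as given below, and each includes 1 sample of the pair with the strong surface pattern. This r therefore cannot tell whether responses at the 2 times were related.

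At 6 h, G0S2 had the lowest p among the lower genes named. It encodes an inhibitor of ATGL, the lipase that opens the breakdown of stored triglyceride. Its log2 values were 13.56, 13.81 and 13.35 in the 3 graphite samples, against 14.29 to 15.19 in the 6 controls, with a median of 14.83. All graphite samples lay below all controls, as the rule for naming a gene requires. The log2 difference was -1.21 ± 0.31 (SE; limma adjusted p = 1.0, unadjusted p = 0.000462) and it stayed between -1.33 and -1.01 on leaving out any one sample. It was -0.93 ± 0.30 (SE) with column position as a term. A graphite and a control sample share a position run in 2 cases, and there G0S2 differed by -1.38 and -1.54. The -1.54 was taken against control 6 h replicate 5, 1 of the pair with the strong surface pattern. On the 2 labelled slides holding both groups G0S2 differed by -1.48 and -0.48, though surface patterns did not follow the array labels. G0S2 was also low in some samples of other materials: 3 of 15 at 6 h lay below all controls. At 24 h its graphite values were 14.71, 14.71 and 13.33 and the difference was -0.77, with the groups overlapping. 

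HINT3, which encodes a nucleotide hydrolase of the histidine triad family, had the largest difference among the lower genes named at 6 h. Its values were 10.89, 9.96 and 10.85 with graphite and 11.30 to 12.64 (median 12.11) in controls, a log2 difference of -1.46 ± 0.41 (SE; limma adjusted p = 1.0). The graphite samples lay below every control by the naming rule. The difference was -1.45 with position as a term and -1.34 and -1.79 within the shared runs, the -1.79 again against control 6 h replicate 5. At 24 h HINT3 pointed the other way, at 0.63. CREG1, a secreted glycoprotein of the endosomal and lysosomal system, read 13.47, 13.78 and 13.69 with graphite and 14.00 to 14.79 (median 14.58) in controls. Its difference of -0.81 ± 0.24 (SE; limma adjusted p = 1.0) was -0.78 with position as a term, and -0.02 at 24 h.

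Genes with graphite below all 6 controls at 6 h numbered 123 (0.603% of all genes) and genes above all controls 127 (0.623%). Beside G0S2, HINT3 and CREG1, the first lower genes by p were VPS13B, which encodes a lipid transfer protein of the Golgi, RASA2, a brake on Ras signalling, the long non-coding RNA TUG1, IKBIP, SMC1A, a cohesin subunit, PEPD, the prolidase that splits proline dipeptides, and VCPIP1, a deubiquitinase. Their log2 differences ran from -1.04 for SMC1A to -0.44 for PEPD. IKBIP was the most uniform: 10.44, 10.44 and 10.38 with graphite against 10.88 to 11.14 in controls, a difference of -0.59 ± 0.21 (SE). TUG1 moved most with a single sample, from -0.90 to -0.27 on leaving one out. For TUG1 and SMC1A a different feature of the same gene had a difference of opposite sign (0.14 and 0.07). The second features of VPS13B and VCPIP1 differed by only -0.05 and -0.19.

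**Figure D1:**
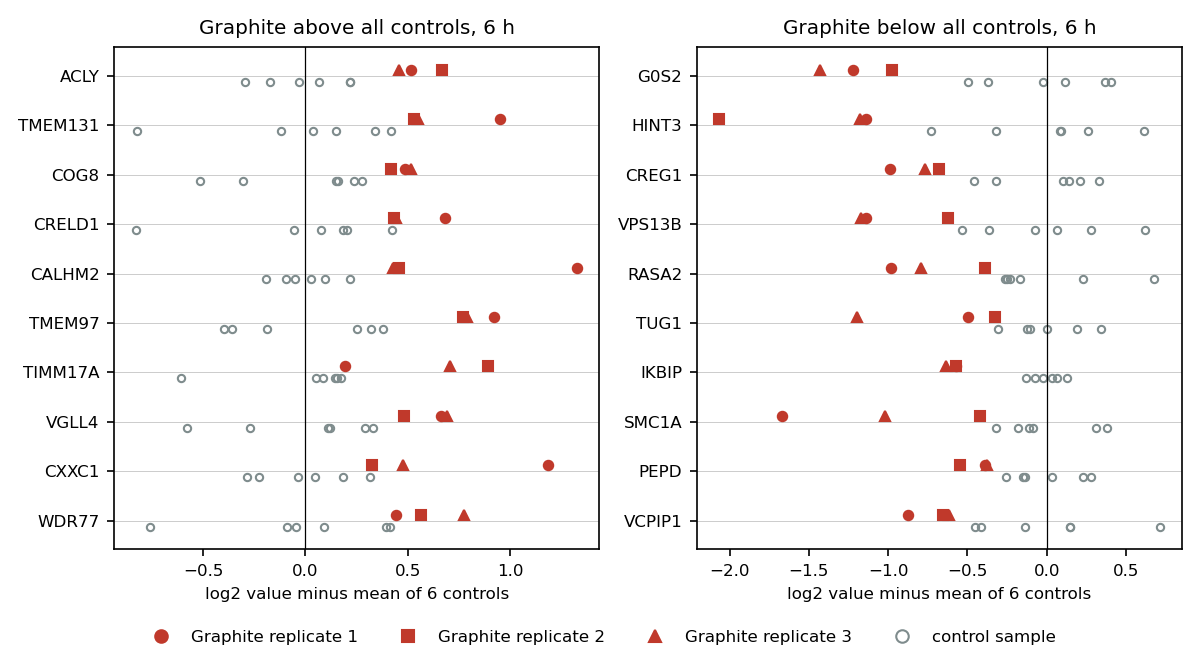
Log2 value minus the mean of the 6 controls (x axis) at 6 h for the 10 genes per direction with the lowest unadjusted p among those whose groups do not overlap. Filled symbols are the 3 graphite samples and open circles the 6 controls; G0S2 and HINT3 lie furthest from their controls on the lower side, and graphite replicate 1 is the furthest out for CALHM2 and CXXC1.

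The higher genes at 6 h were closer to their controls, with log2 differences from 0.47 for COG8 to 0.83 for TMEM97. ACLY, the enzyme that makes cytosolic acetyl-CoA for fatty acid and sterol synthesis, came first by p. It read 12.19, 12.34 and 12.13 with graphite against 11.38 to 11.89 (median 11.69) in controls, a difference of 0.55 ± 0.19 (SE; limma adjusted p = 1.0), and -0.02 at 24 h. TMEM97, a sterol-regulated membrane protein that binds NPC1, read 11.53, 11.38 and 11.40 against 10.21 to 10.99, a difference of 0.83 ± 0.33 (SE). ACLY kept 0.43 and TMEM97 0.37 with position as a term. TIMM17A, a subunit of the mitochondrial import channel, went from 0.60 to 0.81 with that term. The other higher genes were TMEM131, COG8, a Golgi tethering subunit, CRELD1, CALHM2, a calcium homeostasis channel, VGLL4, a cofactor of TEAD factors, CXXC1, a CpG-binding subunit of histone methylation complexes, and WDR77, a partner of the arginine methyltransferase PRMT5. CRELD1 differed by 0.52, and its second feature by 0.04. CALHM2 owed much of its difference to Graphite 6 h replicate 1, one of the leading columns. The CALHM2 difference was 0.74 with all samples and 0.42 at the lowest on leaving one out.

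Cholesterol synthesis genes leaned upward together at 6 h. Of 19 measured members of 24 listed, 18 had a log2 difference above 0, where 49.2% of all genes did, and the median was 0.43, against a median of 0.00 over all genes. At an unadjusted p under 0.05, 2 of 19 were higher (1.04% of all genes) and 0 lower (0.897%), and 0 had groups that did not overlap. MVK, mevalonate kinase, read 10.61, 11.09 and 10.07 with graphite and 9.11 to 10.55 (median 10.22) in controls, a difference of 0.53 ± 0.24 (SE; limma adjusted p = 1.0). MVD, the decarboxylase that makes isopentenyl diphosphate, read 10.86, 10.07 and 10.44 against 9.40 to 10.27, a difference of 0.77 ± 0.32 (SE). For both genes 2 of the 3 graphite samples lay above every control. INSIG1, which holds back the pathway, was the member below 0, at -0.25 ± 0.51 (SE). The list's median per sample was 11.64 to 12.41 with graphite and 10.20 to 12.25 in controls, where the lowest was control 6 h replicate 5, 1 of the pair with the strong surface pattern. Without it the median difference was 0.25, and with position as a term 0.58. At 24 h the median was -0.17, with 8 of 19 members above 0, and 0.05 with position as a term. MVK then stood at -0.56 ± 0.24 (SE), and its time difference was -1.09 ± 0.33 (SE; limma adjusted p = 0.534, unadjusted p = 0.00238).

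At 6 h the median differences of the 26 lists lay between -0.31 for chemokines and 0.43 for cholesterol synthesis. NF-kB targets had a median of 0.11 with 0 of 20 under an unadjusted p of 0.05; the median was -0.27 without Graphite 6 h replicate 3 and 0.56 without replicate 2. At that p, NRF2 antioxidant targets had a median of -0.02 with 1 of 18, inflammasome genes -0.02 with 0 of 12, and lysosome genes 0.07 with 0 of 23. Over all genes 1.94% were under that p at 6 h, so counts this low do not set these lists apart. HMOX1, the haem oxygenase that marks oxidative stress, read 15.03, 15.97 and 14.98 with graphite and 13.64 to 15.98 in controls. The inflammatory genes IL1B, TNF and CXCL8 differed by -0.34 ± 0.80, -0.34 ± 1.05 and -0.31 ± 1.16 (SE). Their controls spread from 13.71 to 15.98, from 7.24 to 13.24 and from 9.91 to 15.98. HMOX1, IL1B and CXCL8 reach the top of the scale at 16 in some samples, so the sizes of their differences are uncertain. HMOX1, these 3 genes and INSIG1 were singled out after their values were seen. CD14, the monocyte co-receptor for lipopolysaccharide, read 12.85, 11.87 and 13.04 with graphite against 12.62 to 15.97 (median 14.25), a difference of -1.70 ± 0.69 (SE), in which the groups overlapped. In bulk samples such as these, fewer cells of a type and less RNA per cell cannot be told apart. MYC, the growth regulator, stood 0.80 ± 0.32 (SE) higher, again with overlap.

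Metallothioneins, small cysteine-rich proteins that bind zinc and copper, are switched on by the zinc sensor MTF1 through metal response elements in their promoters. Their promoters are shown because members of the family had differences of unequal size at 24 h. The sequences are the 250 bases before the start of each gene, from RefSeq on GRCh38.p14; MT1B lies at chr16:56651636-56651885 and MT2A at chr16:56608334-56608583, both on the plus strand. Capitals mark matches to TGCACNC or TGCGCNC, core forms of the metal response element, searched on both strands.
MT1B: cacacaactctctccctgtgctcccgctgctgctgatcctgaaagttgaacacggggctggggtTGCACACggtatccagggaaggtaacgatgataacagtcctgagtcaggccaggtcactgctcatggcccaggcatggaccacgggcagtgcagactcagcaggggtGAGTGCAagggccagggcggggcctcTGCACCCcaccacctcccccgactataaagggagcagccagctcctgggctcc
MT2A: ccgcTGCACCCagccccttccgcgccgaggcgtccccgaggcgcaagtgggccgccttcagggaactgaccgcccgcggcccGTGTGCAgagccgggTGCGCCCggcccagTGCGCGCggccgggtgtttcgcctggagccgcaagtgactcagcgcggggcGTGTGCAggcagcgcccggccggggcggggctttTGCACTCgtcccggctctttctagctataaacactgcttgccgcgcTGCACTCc
The MT1B window holds 3 matches and the MT2A window 7. Of 35116 promoter windows of this length, 24.8% hold at least 1 match, 1.58% at least 3 and 0.031% at least 7. MT1H holds 8 matches, MT1X 4 and SLC30A1 1, while MTF1 and SLC39A10 hold 0 in this window; 8 of the 13 list members were in the sequence table. A match of letters is not a binding site.

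At 24 h MT1B, MT1E and MT1F were lower in the samples labelled Graphite at an unadjusted p under 0.05. MT1X stood at -1.0 ± 0.54 (SE), with its second feature at -0.54, and MT2A, MT1H, MT1G and MT1M lay between -0.11 and 0.18. MT1E read 8.02, 10.85 and 8.79 with graphite and 11.14 to 12.89 (median 12.08) in controls. All graphite samples lay below all controls, replicate 2 closely so. The log2 difference was -2.74 ± 0.89 (SE; limma adjusted p = 0.185 over 48 samples, 0.0383 in the 24 h groups alone). MT1B read 8.53, 10.14 and 7.56 against 10.30 to 13.00 (median 11.81), a difference of -2.86 ± 1.02 (SE; limma adjusted p = 0.192, and 0.0424 in the 24 h groups alone). For MT1F, at 6.89, 10.36 and 9.14 against 10.24 to 11.65, replicate 2 fell inside the control range and the difference was -2.24 ± 0.81 (SE). SLC30A1, the exporter that removes zinc from the cell and a known MTF1 target, stood at -1.28 ± 0.52 (SE), also with overlap. MT2A, the most widely expressed member, read 14.88, 12.87 and 13.72 with graphite and 13.25 to 14.63 in controls, a difference of -0.08 ± 0.38 (SE).

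Over the 12 measured genes of the list, 4 were lower at an unadjusted p under 0.05 and 0 higher at 24 h, where 5.95% of all genes were lower. The list's median was -0.40, against 0.02 over all genes, and ran from -0.56 to -0.23 on leaving out any one sample. At 6 h the same 4 genes pointed upward: MT1E read 11.96, 13.26 and 10.58 with graphite and 7.94 to 12.48 (median 11.55) in controls, a difference of 0.86 ± 0.89 (SE). The value of 7.94 belongs to control 6 h replicate 5, close to the 8.02 of Graphite 24 h replicate 1, the pair that shares a surface pattern. The time difference of MT1E was -3.61 ± 1.26 (SE; limma unadjusted p = 0.00696). In other materials the leading columns differed from the rest by 0.07 for MT1E, 0.10 for MT1B and 0.40 for MT1F. Low values recurred in samples 20 or 40 columns away. For MT1B, Graphite 24 h replicate 3 read 7.56, and samples of other materials at those distances read 7.74 and 7.85. Its MT1E value of 8.79 stood beside 9.18 and 9.84. MT1B in replicate 1 read 8.53, against 8.45 in control 6 h replicate 5. For replicate 2, MT1B read 10.14 against 11.65 and 10.37, and MT1E 10.85 against 12.19 and 10.82. With position as a term the 24 h differences shrank to -1.33 for MT1E, -1.26 for MT1B and -1.30 for MT1F. With samples 20 or 40 columns apart as a random block the differences were -1.25 for MT1E and -1.27 for MT1B. MT1E was low elsewhere too, with 6 of 15 samples of other materials at 24 h below all controls. The metallothioneins are near-identical neighbours on chromosome 16, so their separate values are uncertain where members share sequence.

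**Figure D2:**
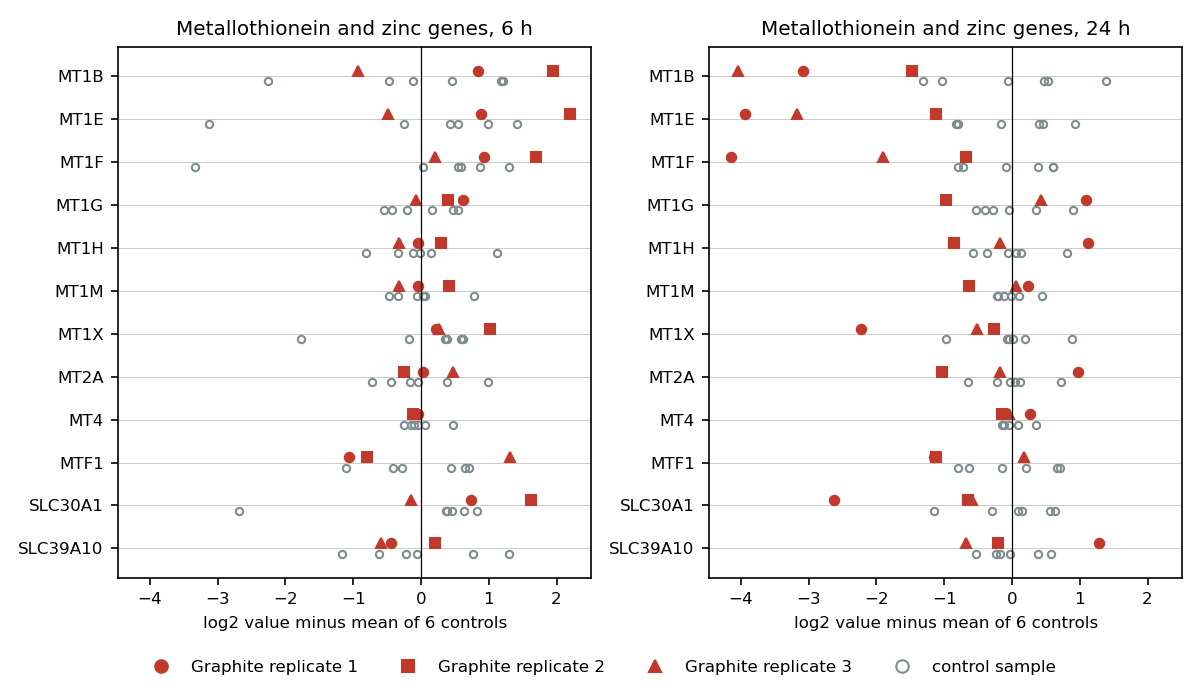
Log2 value minus the mean of the 6 controls (x axis) for 12 metallothionein and zinc genes at 6 h (left) and 24 h (right). Filled symbols are graphite samples and open circles controls; at 24 h all graphite samples of MT1B and MT1E lie left of the controls, and at 6 h the far left circle of MT1E, MT1F and SLC30A1 is a single control sample.

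Among the higher genes at 24 h, SP1 and ANKRD54 had the lowest unadjusted p among the named genes. SP1, a transcription factor that binds GC boxes in many promoters, read 12.15, 11.79 and 12.09 with graphite and 10.53 to 11.21 (median 10.79) in controls. The graphite samples were close together and all above the highest control. The difference was 1.19 ± 0.25 (SE; limma adjusted p = 0.185, unadjusted p = 3.89e-05), stayed between 1.12 and 1.26 on leaving out any one sample, and was 0.72 ± 0.23 (SE) with position as a term and 0.52 with samples 20 or 40 columns apart as a random block. On the 2 labelled slides that hold both groups it was 1.24 and 1.27, though surface patterns did not follow the array labels. At 6 h SP1 stood at -0.09. In samples of other materials SP1 was 0.70 higher in the leading columns, and control 6 h replicate 5 reached 12.11. 

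The other higher genes chosen by p were ANKRD54, AGFG2, SLC35F6, NPIPA1, EIF4ENIF1, a shuttling partner of the cap-binding protein eIF4E, EHMT1, a histone H3 lysine methyltransferase, the protocadherin PCDHB6, CSNK2A2, a catalytic subunit of casein kinase 2, and the deubiquitinase USP40. Their differences ran from 0.73 for USP40 to 1.36 for NPIPA1, a member of a multigene family whose copies share sequence. CSNK2A2 read 10.36, 10.60 and 10.82 against 8.95 to 9.62, a difference of 1.26 ± 0.32 (SE), and 0.72 with position as a term. EHMT1 had another feature that differed by -0.57, and ANKRD54 one that differed by -0.18. These 10 genes, SP1 included, had limma adjusted p = 0.185 over 48 samples, passed in the 24 h groups alone (0.0173 for NPIPA1 to 0.0341 for PCDHB6), and stood between -0.09 and 0.23 at 6 h.

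The lower genes by the same rule at 24 h were led by INO80C and ABHD5. INO80C, a subunit of the INO80 remodeller, read 10.13, 10.67 and 10.65 against 11.39 to 11.83 (median 11.59), a difference of -1.12 ± 0.27 (SE; limma adjusted p = 0.185, 0.0245 in the 24 h groups alone). SMARCC1, a core subunit of the BAF remodeller, read 10.06, 10.93 and 10.31 against 11.09 to 12.27, a difference of -1.33 ± 0.33 (SE). VAMP7, a SNARE protein of late endosome and lysosome fusion, read 9.62, 11.65 and 10.79 against 12.25 to 13.39, a difference of -2.11 ± 0.53 (SE). In each of these genes graphite replicate 1, 1 of the pair with the strong surface pattern, was the lowest. NBR1, a receptor of selective autophagy, stood at -1.82, RCC2 at -1.68, the ubiquitin ligase RFWD3 at -1.60, NR2C2AP at -1.56, FOXJ3 at -1.11, LCMT1, which methylates the phosphatase PP2A, at -0.92 and ABHD5 at -0.85. ABHD5 is the coactivator of ATGL, the lipase that G0S2 inhibits. It read 9.02, 10.25 and 10.21 against 10.51 to 10.77 and did not pass in the 24 h groups alone (limma adjusted p = 0.112), nor did NR2C2AP (0.0803) and LCMT1 (0.068). The 10 features of LCMT1 ran from -2.26 to 0.43. ABHD5 lay between -1.09 and -0.48 whichever sample was left out. The 10 lower genes lay between -0.99 and -0.49 with position as a term.

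**Figure D3:**
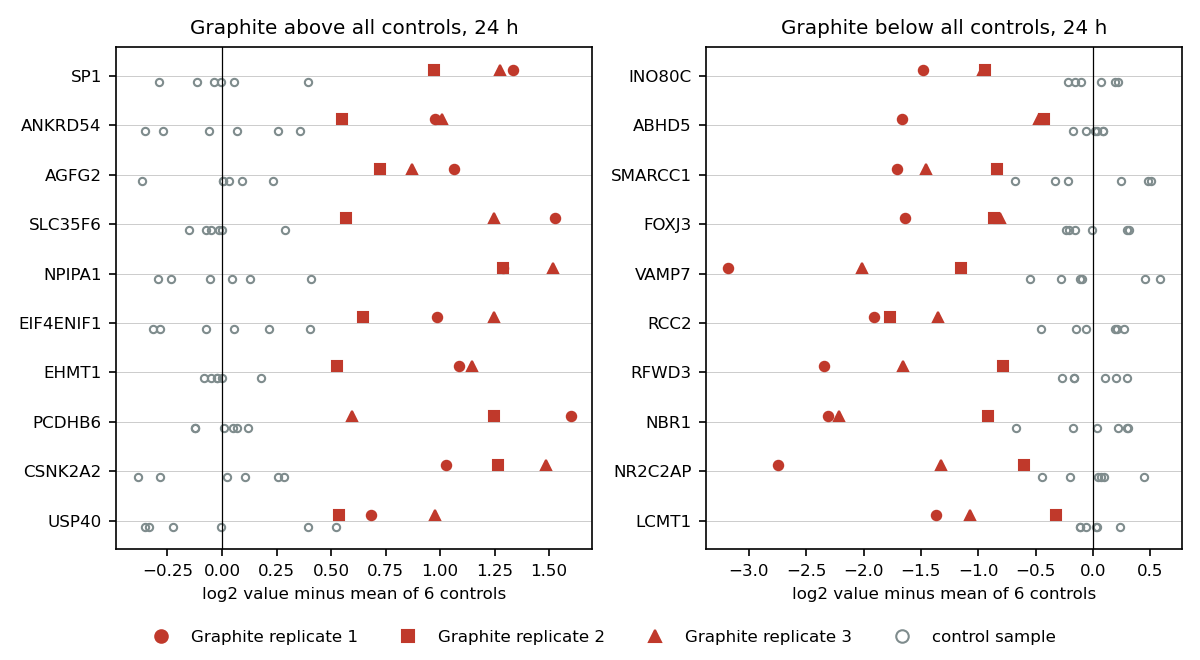
Log2 value minus the mean of the 6 controls (x axis) at 24 h for the 10 genes per direction with the lowest unadjusted p among those whose groups do not overlap. Filled symbols are the 3 graphite samples and open circles the 6 controls; graphite replicate 1 is the lowest sample in all 10 genes of the right panel.

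Among the 814 genes, the higher genes with the largest differences also differed by column position in other materials. The antisense transcript IGF2BP2-AS1 led the higher genes. It read 9.76, 12.31 and 13.31 with graphite against 7.46 to 8.52 (median 7.71), a difference of 4.00 ± 1.23 (SE; limma adjusted p = 0.185, 0.0278 in the 24 h groups alone). Replicates 2 and 3, which sit in leading columns, were the high samples. In other materials IGF2BP2-AS1 was 3.46 higher in the leading columns, and with position as a term the graphite difference was 0.88 ± 0.80 (SE). The same held for TDH-AS1, NKX2-3, a homeobox factor, CTXN1, a small neuronal membrane protein, LOC389834, CFAP107, a ciliary protein, PRRT1, ACTR3BP7 and C2CD4C. Their differences of 3.26 to 3.79 became 0.72 to 1.00 with position as a term. The 7 features of LOC389834 ran from 0.04 to 3.37.

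The lower genes with the largest differences were MT1B and MT1E, described above. Next came NSDHL, a sterol dehydrogenase of cholesterol synthesis, which read 8.30, 11.25 and 10.01 against 11.64 to 13.01, a difference of -2.59 ± 0.87 (SE; limma adjusted p = 0.0453 in the 24 h groups alone). RFX7, TOP1, DPY19L4, METTL18, ZRSR2 and HES6 lay between -2.53 and -2.28, each lowest in Graphite 24 h replicate 1. For TOP1, DPY19L4 and HES6 another feature of the gene differed by 0.44, 0.85 and 0.88, in the opposite direction. With position as a term NSDHL stood at -0.69 and TOP1 at -1.08.

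Position was measured for the whole set. Of the 814 genes, 808 (99.3%) had the sign of the difference between leading and remaining columns in the 30 samples of other materials, 9 against 21; over all genes 66.1% did at 24 h and 60.8% at 6 h. Across genes the 24 h difference and that position difference correlated with r = 0.55, the 6 h difference with 0.49 and the pooled difference with 0.71, as a description over 20399 genes. At 24 h graphite samples and controls share no run of 4 columns, so position and exposure cannot be told apart within a run. With the runs as a term, 486 genes (2.38%) had an unadjusted p under 0.05 at 24 h and 1965 (9.63%) at 6 h and 133 (0.652%) pooled, and 0 passed in any of these; 37 of the 814 were among the 486. At 6 h 529 of the 814 had the same sign as at 24 h, a share that was not worked out for all genes. Of the 814, 4 had an unadjusted p under 0.05 at 6 h, where 1.94% of all genes did.

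**Figure D4:**
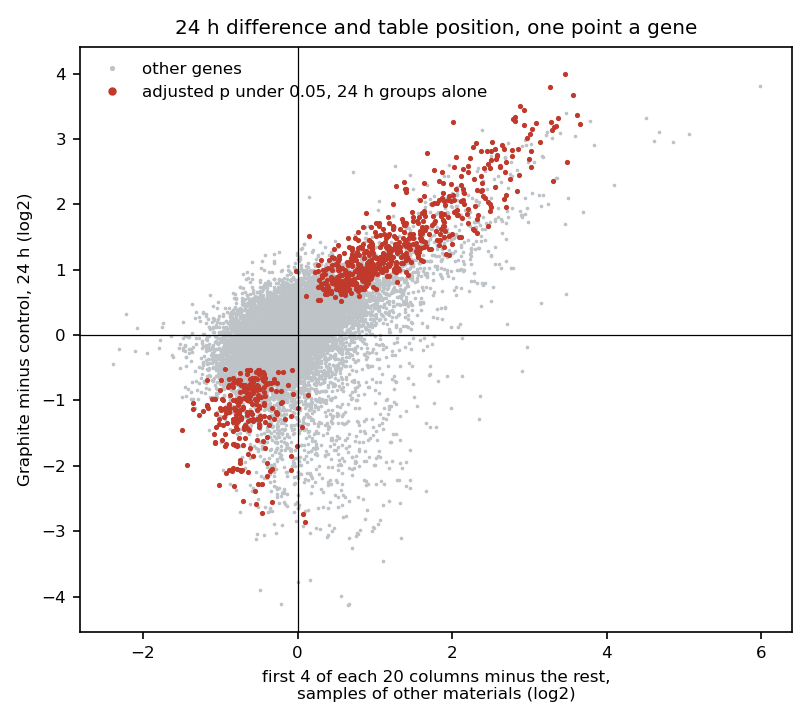
One point a gene: the 24 h difference between graphite and control (y axis, log2) against the difference between the first 4 columns of each 20 and the rest in samples of other materials (x axis, log2). Red points are the 814 genes with an adjusted p under 0.05 when the 24 h groups were fitted alone; 808 of them lie in the quadrants where both differences have the same sign.

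Actin genes were among those that differed by position. At 24 h, 7 of 24 measured actin and adhesion genes had an unadjusted p under 0.05 and were higher (9.75% of all genes were), 0 were lower, and the median was 0.30. GSN, gelsolin, which severs actin filaments, read 14.81, 15.16 and 15.27 with graphite and 13.89 to 14.60 (median 14.25) in controls, a difference of 0.82 ± 0.29 (SE; limma adjusted p = 0.0455 in the 24 h groups alone). A second feature of GSN differed by -1.11, in the opposite direction. ZYX, zyxin of focal adhesions, read 13.30, 15.30 and 15.26 against 12.48 to 13.39. Replicates 2 and 3 were high and replicate 1 was inside the control range, and the difference was 1.70 ± 0.70 (SE). In other materials ZYX was 2.12 higher in the leading columns, from 14.49 to 15.64 there and from 12.06 to 13.64 in the rest. CAPZB, which caps filament ends, stood at 1.12 ± 0.42 (SE) and MYH9, non-muscle myosin, at 0.87 ± 0.35 (SE), with a second MYH9 feature at -0.49. With position as a term ZYX became -0.07, CAPZB -0.06, MYH9 0.22 and GSN 0.20, and the list's median went from 0.30 to -0.10. At 6 h the median was 0.32, and 0.03 with that term.

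**Figure D5:**
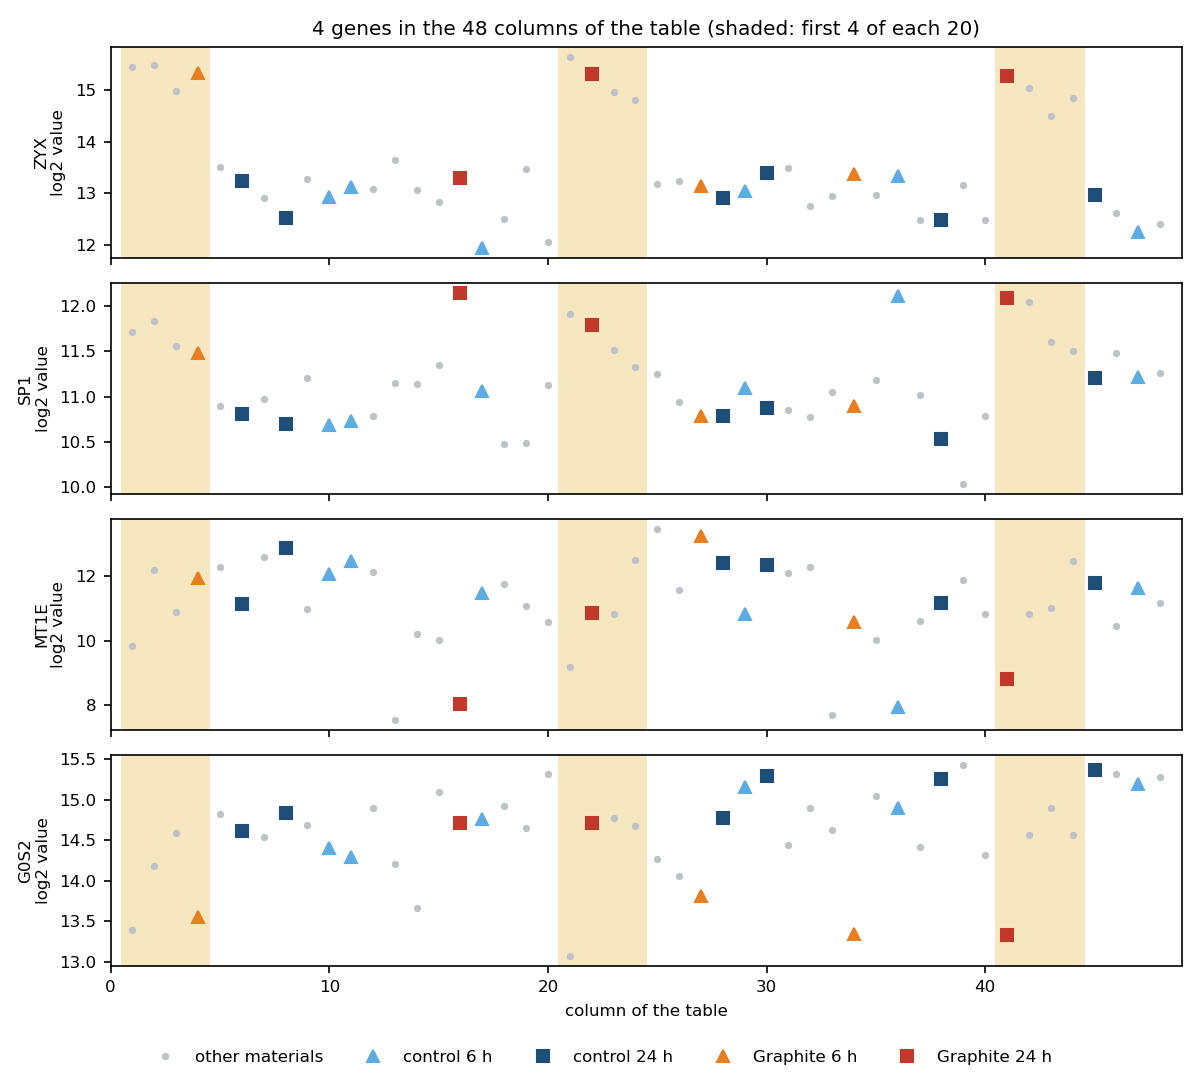
Log2 values (y axes) of ZYX, SP1, MT1E and G0S2 in the 48 columns of the table (x axis), with the first 4 of each 20 shaded. Coloured symbols are graphite and control samples and grey points other materials. ZYX is high in all 12 shaded samples whatever the material. The low G0S2 values of the 3 graphite samples at 6 h, 13.35 to 13.81, lie both inside and outside the shading. A sample of another material 20 columns from the 13.35 was also low, at 13.66.

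Among NF-kB genes at 24 h the median was -0.50, with 5 of 20 above 0, where 53.1% of all genes were. At an unadjusted p under 0.05, 3 of 20 were lower, where 5.95% of all genes were, and 1 higher, where 9.75% were. NFKBIA, which encodes the inhibitor that NF-kB itself induces, read 13.92, 14.16 and 14.56 with graphite and 14.89 to 15.94 (median 15.56) in controls, with no overlap. Its difference was -1.25 ± 0.53 (SE; limma adjusted p = 0.0237 in the 24 h groups alone), and all 10 of its features were below 0, from -2.99 to -0.53. The controls of the feature used reach the top of the scale, where differences are compressed, so its size is uncertain. NFKBIZ, a nuclear coactivator of secondary NF-kB targets, read 7.11, 7.93 and 9.09 against 9.46 to 10.46, a difference of -1.94 ± 0.69 (SE), and NFKBIE stood at -0.70 ± 0.33 (SE). RELA, the p65 subunit, was the higher gene, at 1.15 ± 0.42 (SE), but was 1.40 higher in the leading columns of other materials. With position as a term NFKBIA stood at -1.0, NFKBIZ at -0.67, NFKBIE at -0.81 and RELA at 0.22; the list's median was -0.60. That median was -0.27 without Graphite 24 h replicate 1 and -0.16 with samples 20 or 40 columns apart as a random block.

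Chemokines had the lowest median of the 26 lists at 24 h, -0.87, with 4 of 18 above 0. That median lay between -1.21 and -0.66 whichever sample was left out, and was -0.69 with position as a term and -0.15 with samples 20 or 40 columns apart as a random block; 8 of the 18 genes reach the top of the scale in some sample. CXCL10, an interferon-induced T cell attractant, read 10.26, 8.96 and 9.79 against 10.07 to 12.11, a difference of -1.28 ± 0.62 (SE; limma adjusted p = 0.0455 in the 24 h groups alone), and -1.60 with position as a term. CCL18, made by alternatively activated macrophages, stood at -0.72 ± 0.34 (SE), and CCL22, at 7.08 to 8.26 with graphite near the bottom of the scale, at 0.58 ± 0.24 (SE). For cytokines, OSM, a member of the IL-6 family, read 8.34, 8.13 and 8.17 against 9.24 to 10.33 (median 9.37). All graphite samples lay below all controls, with a difference of -1.29 ± 0.56 (SE) and a limma adjusted p = 0.0284 in the 24 h groups alone. The difference was -1.27 with position as a term, and the second feature of OSM differed by -0.29. TGFB1 stood at 1.81 ± 0.75 (SE), and at -0.09 with that term.

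Interferon-stimulated genes had a median of -0.34, with 7 of 24 above 0, 3 lower and 1 higher at an unadjusted p under 0.05, against 5.95% and 9.75% of all genes. RSAD2, the antiviral enzyme viperin, stood at -2.22 ± 0.85 (SE), DDX60 at -2.01 ± 0.96 (SE) and IFI44 at -0.99 ± 0.44 (SE), while IFI6 stood at 0.91 ± 0.35 (SE). RSAD2 read 7.08, 9.77 and 9.24 against 9.97 to 11.98, with graphite below every control. Of 23 immediate early genes 2 were higher and 2 lower, near the 9.75% and 5.95% of all genes: EGR1, at 7.18, 11.14 and 10.54 against 11.30 to 13.70, differed by -3.12 ± 1.20 (SE), and ZFP36, which destabilises cytokine mRNAs, by 1.30 ± 0.51 (SE). EGR1 stood at -1.33 and ZFP36 at -0.05 with position as a term. In each of RSAD2, EGR1 and NFKBIZ the lowest graphite sample was replicate 1, and the lowest control at 6 h lay near it, at 7.06 for RSAD2, 7.40 for EGR1 and 7.17 for NFKBIZ.

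Of 23 lysosome and proton pump genes 4 were higher and 2 lower at 24 h, against 9.75% and 5.95% of all genes, with a median of 0.22, and -0.02 with position as a term. ATP6AP1, an accessory subunit of the proton pump, read 15.40, 15.05 and 15.15 against 13.96 to 14.71, a difference of 0.94 ± 0.28 (SE; limma adjusted p = 0.0364 in the 24 h groups alone), and 0.15 with position as a term. ATP6V0D1 stood at 0.64 ± 0.19 (SE), while ATP6V1B2, a subunit of the pump's catalytic head, stood at -2.64 ± 1.08 (SE) and LAMP2, a lysosomal membrane glycoprotein, at -0.68 ± 0.27 (SE), with another LAMP2 feature at 0.52. In the inflammasome list, of median -0.02, 3 of 12 were lower, against 5.95% of all genes, and 0 higher: CASP4, the caspase that senses cytosolic lipopolysaccharide, at -1.64 ± 0.60, the DNA sensor AIM2 at -1.05 ± 0.51 and CASP5 at -0.49 ± 0.23 (SE). Without Graphite 24 h replicate 1 CASP4 stood at -0.52. In the ER stress list, the chaperone gene HSPA5 stood at -1.68 ± 0.70 (SE) and HYOU1 at 1.33 ± 0.52 (SE); with position as a term they stood at 0.08 and 0.10. Respiratory chain genes had 5 of 28 lower, against 5.95% of all genes, and 0 higher, with a median of -0.09. NRF2 targets had 2 higher and 2 lower of 18, near the 9.75% and 5.95% of all genes, with a median of -0.12. HMOX1 differed by -0.02 ± 0.40 (SE).

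With both times pooled, 7 genes (0.0343% of all genes) had graphite above all controls at 6 h and at 24 h, and 0 genes had it below at both. They were ENTPD6, a nucleotidase of the Golgi, SHC1, an adaptor of receptor tyrosine kinases, GSN, MUS81, an endonuclease of DNA repair, ZNF296, RBM14 and RAB8A, a GTPase of membrane traffic. ENTPD6 read 12.21, 11.34 and 11.69 at 6 h against 10.58 to 11.30, and 11.59, 11.92 and 12.22 at 24 h against 10.59 to 11.35. Its pooled difference was 0.81 ± 0.22 (SE; limma adjusted p = 0.63). SHC1 read 12.53, 11.66 and 11.88 at 6 h against 11.04 to 11.61, and 11.68, 12.25 and 12.49 at 24 h against 11.34 to 11.58, a pooled difference of 0.66 ± 0.20 (SE). At 24 h the 11 features of SHC1 ran from -0.61 to 1.54, and those of RBM14 from -0.30 to 0.52. Replicate 1 at 6 h and replicates 2 and 3 at 24 h, the graphite samples in leading columns, were the high ones in both genes. Pooled differences of the 7 genes ran from 0.56 to 0.99 and became 0.06 to 0.19 with position as a term, and in other materials each was 0.51 to 1.58 higher in the leading columns. At an unadjusted p under 0.05, 1242 genes (6.09%) were higher pooled and 338 (1.66%) lower.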

How the data were processed

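The deposited values are log2 intensities of 45220 features in 48 samples; per the submitters' processing notes R 2.3 and limma were used, and the sources used here do not state the normalisation. Of the features, 35268 carry a gene symbol, and the feature of highest mean stands for each of 20399 genes. Limma 3.58.1 in R 4.3.3 fitted 14 groups and dye to all 48 samples (32 residual degrees of freedom), and p-values were adjusted by Benjamini-Hochberg. The own-groups fit holds the groups of 1 contrast alone. The position term, chosen after seeing the data, has 5 runs of 4 neighbouring columns in each 20. The test was checked on simulated data before use. The simulated samples were independent of each other, so that check does not cover the column pattern of these data. Named genes have a mean of at least 8, no sample at 15.9 or above and groups that do not overlap, and are the first 10 a direction by unadjusted p, or by fold among genes called in the own-groups fit; members of 26 lists may be named as well. Not every gene that met the rule is printed. The members and lists were chosen with earlier results of these data known. Neither replicate letters nor title numbers gave a steady pairing of graphite with control samples. Same-lettered samples correlated in their deviations with r from -0.24 to 0.46 over 12 pairs. For samples of the same title number r ran from -0.23 to 0.46 over 6 pairs.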

Additional observations from a re-analysis of the deposited data

Results flagged for a closer look

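Of 73 groups of 4 to 10 samples examined among the named genes, 6 held a sample far from the others; chance alone marks about 1 in 20. Control 6 h replicate 5, which shares a surface pattern with Graphite 24 h replicate 1, was low for TIMM17A at 13.64, with the next control at 14.30. Control 24 h replicate 1 was the high sample for SLC35F6 at 10.09, for EHMT1 at 10.26 and for IGF2BP2-AS1 at 8.52. Control 24 h replicate 6 was the low sample for ZNF296 at 7.43 and for RAB8A at 11.71.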

How the results depend on the processing

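The 24 h count is the result that depends most on the processing. It was 0 in the fit of all 48 samples and 814 with the 24 h groups alone. In that smaller fit, leaving out 1 sample gave 0 to 2523 genes at 24 h: 2523 without Graphite 24 h replicate 1, 383, 24, 0, 0, 110 and 113 without control 24 h replicates 1 to 6, and 229 and 20 without Graphite 24 h replicates 2 and 3. Pooled it gave 0 to 1324 genes, with 1324 without Graphite 24 h replicate 1 and 464 without control 6 h replicate 5. For the time difference it gave 0 to 227, with 227 without Graphite 24 h replicate 1, and at 6 h it gave 0 throughout. With the replicate letter as a block, 0 genes passed in the 4 contrasts, and 377, 3126, 1541 and 1789 had an unadjusted p under 0.05 at 6 h, 24 h, pooled and for the time difference. With the title number as a block 0 passed as well. With samples 20 or 40 columns apart as a random block (correlation 0.722), 386 genes had an unadjusted p under 0.05 at 24 h and 979 at 6 h. With the labelled slide as a term there were 4362 at 24 h, at a lowest adjusted p of 0.0506. No gene named by p or fold changed sign under the settings run. Those genes were named for groups that do not overlap, so leaving out a sample could hardly change their sign. List members did change sign with the position term (ZYX, CAPZB, TGFB1, ZFP36 and HSPA5 at 24 h), and so did 21 of 78 list medians. Of these medians 19 changed sign with the block of columns 20 or 40 apart, 18 with the title-number block and 15 with controls of code 1 alone. The settings were dye, quantile and median scaling, filter, feature averaging, variance model, surface removal, each control code alone, blocks, position and leaving out samples.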
